A study of Mus musculus with 7 samples.

Results

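The genes described here are 39 genes of glycolysis and of the cell's response to low oxygen, chosen by symbol from the 54347 genes of the count table. They comprise 18 enzymes of the path from glucose to lactate, 4 transporters of glucose and lactate, 5 kinases that regulate the pathway, 5 genes of the hypoxia-inducible factor (HIF) system and 7 genes that HIF activates in many tissues. They were measured in LT-HSCs (long-term haematopoietic stem cells), the marrow cells that can rebuild blood over the long term, by bulk RNA sequencing of 3 KO (Emcn-/-) and 4 WT (Emcn+/+) female mice, with 1 library per mouse. All mice carry the C57BL/6N-EMCN em1(IMPC)Wtsi /WtsiH strain label, and the series names the Emcn+/+ mice as littermates. The strain name denotes an allele made by genome editing, and the labels name no promoter or cell type that would limit it to blood cells. Emcn codes for the surface sialomucin endomucin. No source used here gives the ages of the mice or the exons that the allele removes. Libraries are called by genotype and mouse number: ko_306, ko_314 and ko_320, and wt_284, wt_290, wt_310 and wt_312. Values of the KO libraries and of the last 3 WT libraries always follow that order.

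Glycolysis splits glucose into pyruvate in the cytosol, and lactate dehydrogenase can turn the pyruvate into lactate without using oxygen. HIF is a pair of proteins whose alpha subunit is hydroxylated by the prolyl hydroxylases Egln1 and Egln3 when oxygen is present, bound by the ubiquitin ligase subunit Vhl and degraded. In low oxygen the alpha subunit persists and switches on glucose transporters, glycolytic enzymes and Pdk1, which keeps pyruvate from mitochondrial oxidation. Quiescent LT-HSCs lie in poorly oxygenated marrow and are known for relying on glycolysis and on HIF. Much of this control acts on protein rather than on transcripts, which alone were measured here.

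All 39 genes were expressed well enough to be tested, and none differed between KO and WT past the threshold, an adjusted p of 0.05 in edgeR's quasi-likelihood test over 15372 genes. Their adjusted p ranged from 0.992 to 0.997, and the test called 0.00651% of all genes tested, which is 1 gene, Emcn itself. Of the 39 fold changes (log2, KO over WT, on TMM-scaled counts), 28 were negative and 11 positive, with a median of -0.12, where 52.4% of all genes tested were negative and their median was -0.019. An unadjusted p under 0.05 was found for 2 members, the enolase Eno1 and the lactate exporter Slc16a3, both with lower KO values. Over all genes 1.99% had so small a p with lower KO values and 1.28% with higher KO values, 3.27% in all. DESeq2 called 0 members as well, where it called 0.0651% of all genes, with an unadjusted p under 0.05 for 4 members and for 4.42% of all genes. It gave no p for Hk3, which therefore could not be called there. In edgeR the number of members with so small a p moved with single libraries: it was 4 without ko_306 (5.63% of all genes), 0 without ko_314 (1.76%) and 7 without wt_312 (6.78%). Within WT, library wt_284 had the highest value of 23 of the 39 genes.

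The labels were checked on Emcn, whose transcripts gave 1, 0 and 0 counts in the KO libraries and 130, 327, 223 and 216 counts in the WT libraries. Totals ran from 6648881 to 11101774 counts in KO and from 6444134 to 10322741 counts in WT. Levels are given as CPM, counts relative to the library's total after TMM scaling. Of 10 stem cell genes including Kit, Slamf1 (CD150) and Procr, every one was detected in every library, and their summed level was 1730.3 to 1996 CPM in KO, 1256 CPM in wt_284 and 1823 to 1957 CPM in the remaining WT libraries. Library wt_284 stood apart. The 15 neutrophil and monocyte markers, all highest in it, summed to 195 to 679 CPM in KO, against 14672 CPM in wt_284 and 251 to 1285 CPM in the 3 further WT libraries. The 9 erythroid markers, again all highest in wt_284, summed to 152 to 280.5 CPM in KO, against 3823 CPM in wt_284 and 209 to 803 CPM in the 3 further WT libraries. All 10 lymphoid markers were highest in wt_284 too, with sums of 10.8 to 15.4, 125 and 12.8 to 19.1 CPM in the same order. So were all 6 mast cell and basophil markers, with sums of 0 to 8.09, 91.3 and 8.86 to 33.0 CPM. Of 6 megakaryocyte markers 0 were highest in wt_284, and of 6 endothelial and stromal markers 1. No marker of these lists was at 0 in every library, although the sort excluded cells with Gr-1, CD11b and Ter119. Results are therefore given with and without wt_284, and the part of these cells' transcripts in them was not tested. Leaving out wt_284 did not even out these sums. For neutrophil and monocyte markers, wt_290 and wt_310 gave 1277 and 1285 CPM, above every KO library. For erythroid markers they gave 568 and 803 CPM, also above every KO library. Library wt_312 lay within the KO range for both sums, with 251 and 209 CPM. In bulk libraries, fewer cells of a type and less RNA per cell cannot be told apart. The replicates are separate mice.

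HIF binds DNA at the letters ACGTG and, less strictly, GCGTG, so the bases just before each start site are shown for 6 members: 2 textbook HIF targets of glycolysis, both monocarboxylate transporters, the mitophagy receptor Bnip3 and the hexokinase Hk3, which has the strongest contrast of wt_284 among the enzymes. The 250 bases before the RefSeq start site (GRCm38.p6) are written from 5′ to 3′ on the gene's strand, and capitals mark ACGTG or GCGTG on either strand, with CACGTG counting as a match on each strand. In GENCODE, 13 of these bases of Bnip3 and 14 of Slc16a3 lie in an exon of the gene itself, and none of the others.
Ldha, chr7:46845554-46845803 (plus strand): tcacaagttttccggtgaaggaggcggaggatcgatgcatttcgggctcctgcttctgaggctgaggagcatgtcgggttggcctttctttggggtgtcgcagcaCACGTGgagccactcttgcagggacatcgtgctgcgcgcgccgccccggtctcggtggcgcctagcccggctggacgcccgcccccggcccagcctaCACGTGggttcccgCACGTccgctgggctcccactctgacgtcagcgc
Pgk1, chrX:106186850-106187099 (plus strand): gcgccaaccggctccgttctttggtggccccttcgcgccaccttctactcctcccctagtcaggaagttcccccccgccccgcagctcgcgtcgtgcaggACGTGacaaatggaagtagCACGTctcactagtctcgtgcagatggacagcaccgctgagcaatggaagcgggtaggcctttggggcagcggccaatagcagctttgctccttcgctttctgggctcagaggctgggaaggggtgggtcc
Slc16a1, chr3:104638414-104638663 (plus strand): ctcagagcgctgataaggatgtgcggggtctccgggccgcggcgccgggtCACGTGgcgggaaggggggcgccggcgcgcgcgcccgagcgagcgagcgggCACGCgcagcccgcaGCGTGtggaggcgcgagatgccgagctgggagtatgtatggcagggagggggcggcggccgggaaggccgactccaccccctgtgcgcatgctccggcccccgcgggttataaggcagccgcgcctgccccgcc
Slc16a3, chr11:120948817-120949066 (plus strand): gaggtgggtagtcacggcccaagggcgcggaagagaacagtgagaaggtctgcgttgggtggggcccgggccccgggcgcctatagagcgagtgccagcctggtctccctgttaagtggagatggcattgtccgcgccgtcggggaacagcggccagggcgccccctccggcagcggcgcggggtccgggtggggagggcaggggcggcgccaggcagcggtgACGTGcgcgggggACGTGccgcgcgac
Bnip3, chr7:138909507-138909756 (minus strand): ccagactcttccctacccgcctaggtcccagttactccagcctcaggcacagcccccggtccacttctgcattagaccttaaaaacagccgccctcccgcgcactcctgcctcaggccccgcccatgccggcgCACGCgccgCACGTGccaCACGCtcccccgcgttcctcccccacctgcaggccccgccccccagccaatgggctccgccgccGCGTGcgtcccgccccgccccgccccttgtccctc
Hk3, chr13:55021386-55021635 (minus strand): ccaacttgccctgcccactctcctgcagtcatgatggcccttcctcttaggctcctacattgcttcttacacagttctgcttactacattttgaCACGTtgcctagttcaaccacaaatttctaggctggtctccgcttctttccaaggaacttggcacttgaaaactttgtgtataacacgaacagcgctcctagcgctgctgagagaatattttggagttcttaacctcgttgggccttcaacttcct

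RefSeq start sites were at hand for 36 of the 39 members, all but Slc2a3, Bnip3l and Epas1. At least 1 match lay in these bases in 32 of the 36 genes (88.9%), against 6202 of 10302 tested genes (60.2%) and 11226 of all 27025 genes with a promoter (41.5%). ACGTG was found in 22 of the 36 members (61.1%) and in 25% of tested genes, and GCGTG in 23 members (63.9%) and 48.6% of tested genes. A gene with several starts was counted as matched if any of them had a match. The member promoters were also richer in CpG, and both motifs hold a CpG. Taking for each gene the start with the most CpG, the median was 19 CpG in members, 17 in tested genes and 6 in all genes. Per promoter it was 14 CpG over 51 member promoters and 6 over all 32851, with a match in 78.4% and 38.6% of them. The part of CpG in the matches was not tested. RefSeq lists 2 starts for Ldha. The first, shown above, has 5 matches, of which 4 come from 2 copies of CACGTG that begin at positions -145 and -48 counted from the start site, and the second (chr7:46846832-46847081) has 1 match, GCGTG. The bases just after the first start are in no GENCODE transcript of Ldha, while those after the second are. Of the other promoters shown, only the start of Slc16a1 likewise lacks them in a GENCODE transcript. The Hk3 promoter has a single match and 6 CpG, while that of Slc16a1 has 4 matches and 37 CpG. A match is a description of letters and shows no binding.

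On the scale that allows genes to be compared, CPM per kb of exon, the most abundant members were enzymes, most of them of the lower part of glycolysis. Gapdh, which oxidises glyceraldehyde phosphate, averaged 71.5 in KO and 91.6 in WT, and the pyruvate kinase Pkm averaged 61.2 in KO and 81.2 in WT. They were followed by the phosphoglycerate kinase Pgk1 at 55.4 in KO and 59.9 in WT, Ldha at 51.6 in KO and 58.6 in WT and Aldoa at 44.8 in KO and 57.6 in WT. By the mean over all 7 libraries, the lowest were the HIF alpha subunit Epas1 at 0.759 in KO and 0.618 in WT, the HIF target Ankrd37 at 0.718 in KO and 0.777 in WT and the enolase Eno2 at 0.951 in KO and 0.6103 in WT. Among KO means alone the lowest was that of the lactate exporter Slc16a3, at 0.242 in KO and 2.25 in WT. The span from Gapdh to Epas1 was far wider than the difference between the groups' means for any member.

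**Figure D1:**
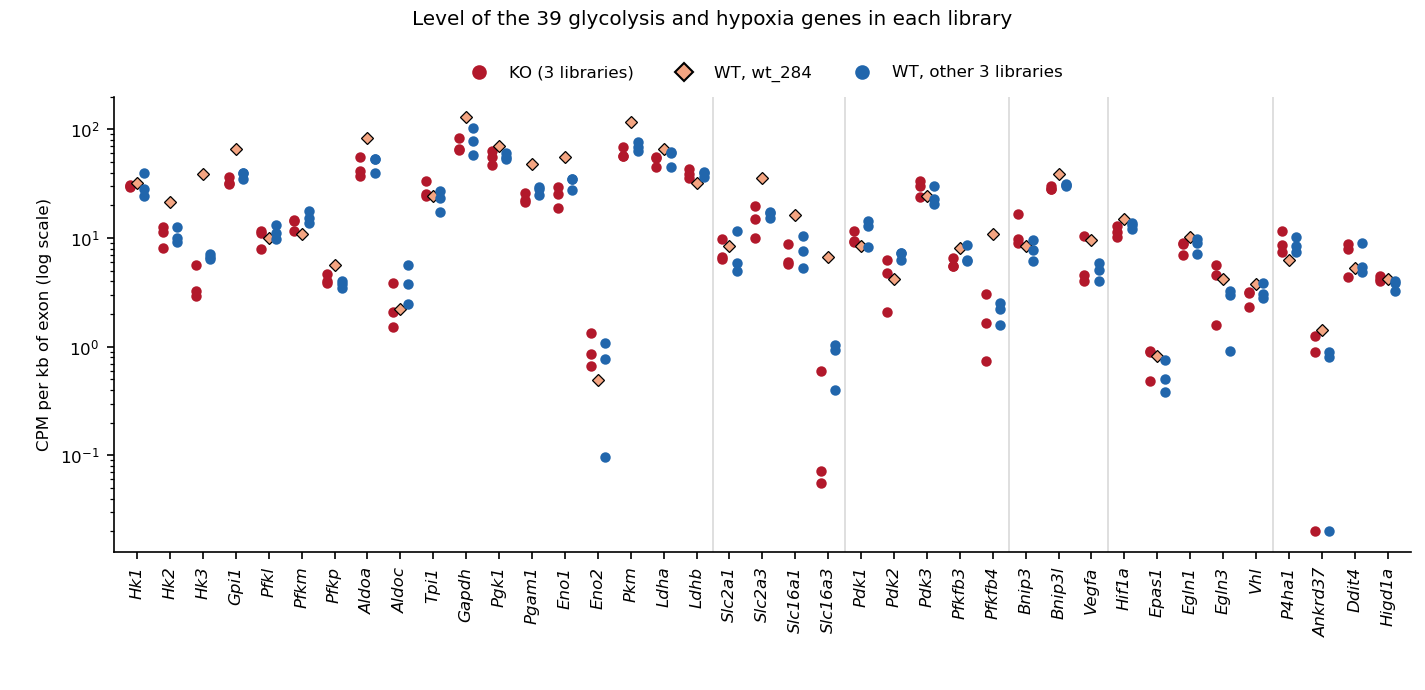
Level of each of the 39 genes in each library, in CPM per kb of merged exon on a log axis; KO libraries are left of WT libraries for each gene, wt_284 is a diamond, and grey lines separate enzymes, transporters, regulatory kinases, Bnip3 to Vegfa, the HIF system and the other HIF targets. Values of 0 (Ankrd37 in ko_320 and wt_312) are drawn at the lower edge. Library wt_284 lies farthest above all other libraries for Hk3, Slc16a3 and Pfkfb4. It also lies above them, by less, for further genes such as Gpi1, Pkm, Eno1 and Slc2a3. Most other genes show KO points and the remaining WT points side by side.

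The first steps of glycolysis trap glucose in the cell and turn it into a form that can be split. Hexokinase phosphorylates glucose and has 3 members here. Hk1, the housekeeping isozyme on mitochondria, gave 265, 253 and 256 CPM in KO, against 272 CPM in wt_284 and 338, 242 and 209 CPM in the remaining WT libraries, and its log2 fold change was -0.041 ± 0.16 (SE). Hk2, the inducible isozyme, averaged 63.7 ± 14.01 CPM in KO and 79.6 ± 32.9 CPM in WT (SD, n = 3 and 4), with a log2 fold change of -0.32 ± 0.29 (SE), or 0.0043 without wt_284. Hk3, the hexokinase of myeloid cells (ENSMUSG00000025877.14, chromosome 13 from 55005985 to 55021385, minus strand, GRCm38), gave 20.6, 10.7 and 11.97 CPM in KO, against 144 CPM in wt_284 and 24.7, 26.4 and 23.4 CPM in the remaining WT libraries. For Hk3 every KO library was below every WT library, as was so for 2 of the 39 genes, where 2.43% of all genes tested stood apart with lower KO values and 2.43% with higher KO values. Its log2 fold change was -1.91 ± 0.85 (SE; unadjusted p = 0.0654, adjusted p = 0.992), with a 95% interval of -3.99 to 0.17. Without wt_284 it was -0.77 (unadjusted p = 0.0281, adjusted p = 0.999), so the value moved by over 1.5 times while the groups still stood apart. Hk3 and the neutrophil and monocyte markers were both highest in wt_284. In the remaining WT libraries that marker sum was 1277, 1285 and 251 CPM, where Hk3 gave 24.7, 26.4 and 23.4 CPM. In the KO libraries the marker sum was 679, 200.3 and 195 CPM, where Hk3 gave 20.6, 10.7 and 11.97 CPM. The part of other marrow cells in the Hk3 values was not tested. The exons of Hk3 overlap those of Unc5a on the opposite strand, and no source used here says whether counting used the strand.

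Gpi1, the isomerase that follows hexokinase, gave 233, 204 and 207 CPM in KO, against 424 CPM in wt_284 and 257, 256 and 226 CPM in the remaining WT libraries. Of its KO libraries 2 were below all WT libraries and ko_306 was above wt_312 alone, while wt_284 lay far above the rest. Its log2 fold change was -0.44 ± 0.20 (SE; unadjusted p = 0.05104, adjusted p = 0.992), and -0.20 without wt_284. Phosphofructokinase commits the sugar to glycolysis. Its subunit Pfkm gave 47.7, 38.9 and 49.2 CPM in KO, against 36.6 CPM in wt_284 and 51.4, 45.5 and 59.3 CPM in the remaining WT libraries, with a log2 fold change of -0.090 ± 0.21 (SE), or -0.20 without wt_284. Its partners Pfkl and Pfkp had log2 fold changes of -0.12 and -0.015, and that of Pfkp was 0.033 under upper-quartile scaling. Pfkm shares exon sequence on the opposite strand with Senp1, and Pfkp with Pitrm1. Aldolase then splits the sugar. Aldoa gave 160.4, 121 and 109 CPM in KO, against 243 CPM in wt_284 and 156, 155 and 117 CPM in the remaining WT libraries, with a log2 fold change of -0.36 ± 0.23 (SE), or -0.12 without wt_284, and Aldoc had one of -0.49 ± 0.46 (SE). KO and WT overlapped for all of these but Hk3.

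The second part of the pathway recovers energy and ends in pyruvate and lactate. Tpi1, which interconverts the products of that split, was the enzyme with the highest KO value relative to WT among those above 10 CPM, with a log2 fold change of 0.27 ± 0.20 (SE) and levels of 76.6 ± 14.4 CPM in KO and 63.4 ± 11.4 CPM in WT (SD, n = 3 and 4). Gapdh gave 343, 274 and 269 CPM in KO, against 534 CPM in wt_284 and 423, 320.2 and 238 CPM in the remaining WT libraries. All 3 KO libraries lay within the range of wt_290 to wt_312, and the log2 fold change was -0.36 ± 0.24 (SE), or -0.14 without wt_284. Pgk1, the first step that yields ATP, averaged 124 ± 18.6 CPM in KO and 134 ± 17.4 CPM in WT (SD, n = 3 and 4), with a log2 fold change of -0.11 ± 0.16 (SE), or -0.021 without wt_284. Pgam1, the mutase before enolase, gave 51.8, 44.4 and 42.2 CPM in KO, against 94.8 CPM in wt_284 and 59.02, 56.4 and 49.3 CPM in the remaining WT libraries. Of its KO libraries 2 were below all WT libraries, and its log2 fold change was -0.49 ± 0.23 (SE; unadjusted p = 0.0556, adjusted p = 0.992), or -0.25 without wt_284.

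Eno1, the enolase of most tissues, had the smallest p of all members. The gene (ENSMUSG00000063524.13, chromosome 4 from 150236721 to 150248879, plus strand, GRCm38) gave 158, 101 and 137 CPM in KO, against 299.5 CPM in wt_284 and 189, 188 and 148 CPM in the remaining WT libraries. Of the KO libraries, 2 were below all WT libraries, and ko_306 was above wt_312, so the groups overlapped. The log2 fold change was -0.64 ± 0.24 (SE; unadjusted p = 0.01996, adjusted p = 0.992), with a 95% interval of -1.16 to -0.12. Without wt_284 it was -0.40 (unadjusted p = 0.0395, adjusted p = 0.999). Eno1 has near-identical copies in the genome (Eno1b and Gm4735), whose counts made up 7.25% of the sum of copies and gene. With the copies added to it, the log2 fold change was -0.49 (unadjusted p = 0.0549). Eno1b held 165, 101 and 172 counts in KO, against 55 in wt_284 and 154, 0 and 3 in the remaining WT libraries. Whether these were reads of Eno1 or transcripts of Eno1b was not tested. Gapdh has 41 near-identical copies, which held 9.39% of the sum, and its log2 fold change with them was -0.32.

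Pkm, which makes pyruvate, gave 344, 287 and 287 CPM in KO, against 582.2 CPM in wt_284 and 385, 342 and 315 CPM in the remaining WT libraries. Again 2 KO libraries were below all WT libraries, ko_306 was above wt_310 and wt_312, and the log2 fold change was -0.41 ± 0.20 (SE; unadjusted p = 0.0661, adjusted p = 0.992), or -0.18 without wt_284. Exons of Pkm overlap those of Gm49759 on the same strand, and exons of Gapdh those of Iffo1 on the opposite one. Splice forms of Pkm cannot be read from counts per gene. Ldha, which reduces pyruvate to lactate, gave 183, 149.9 and 180.1 CPM in KO, against 219 CPM in wt_284 and 207, 201 and 149 CPM in the remaining WT libraries. All 3 KO libraries lay inside the WT range, and the 95% interval of its log2 fold change ran from -0.53 to 0.17. Ldhb, the form that favours the reverse reaction, averaged 61.5 ± 6.36 CPM in KO and 58.5 ± 6.004 CPM in WT (SD, n = 3 and 4), with a log2 fold change of 0.070 ± 0.17 (SE). The minor enolase Eno2 averaged 4.47 ± 1.598 CPM in KO and 2.87 ± 1.98 CPM in WT, with one of 0.63 ± 0.77 (SE).

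Summed over the 18 enzymes, levels were 2269.6, 1948 and 2010.3 CPM in KO, against 3403 CPM in wt_284 and 2573, 2272 and 1979 CPM in the remaining WT libraries. Pkm and Gapdh made the largest parts of the sum in both groups, followed by Hk1 in KO and by Gpi1 in WT, where Hk1 exceeded Gpi1 once wt_284 was left out. Library ko_314 lay below all WT libraries, ko_320 just above the lowest of them, wt_312, and ko_306 just below wt_310. Of the 18 enzymes, 15 had a negative and 3 a positive log2 fold change, with a median of -0.25, and none passed the test. Upper-quartile scaling made Pfkp positive as well. Without wt_284 the split was 13 negative and 5 positive and the median -0.13.

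**Figure D2:**
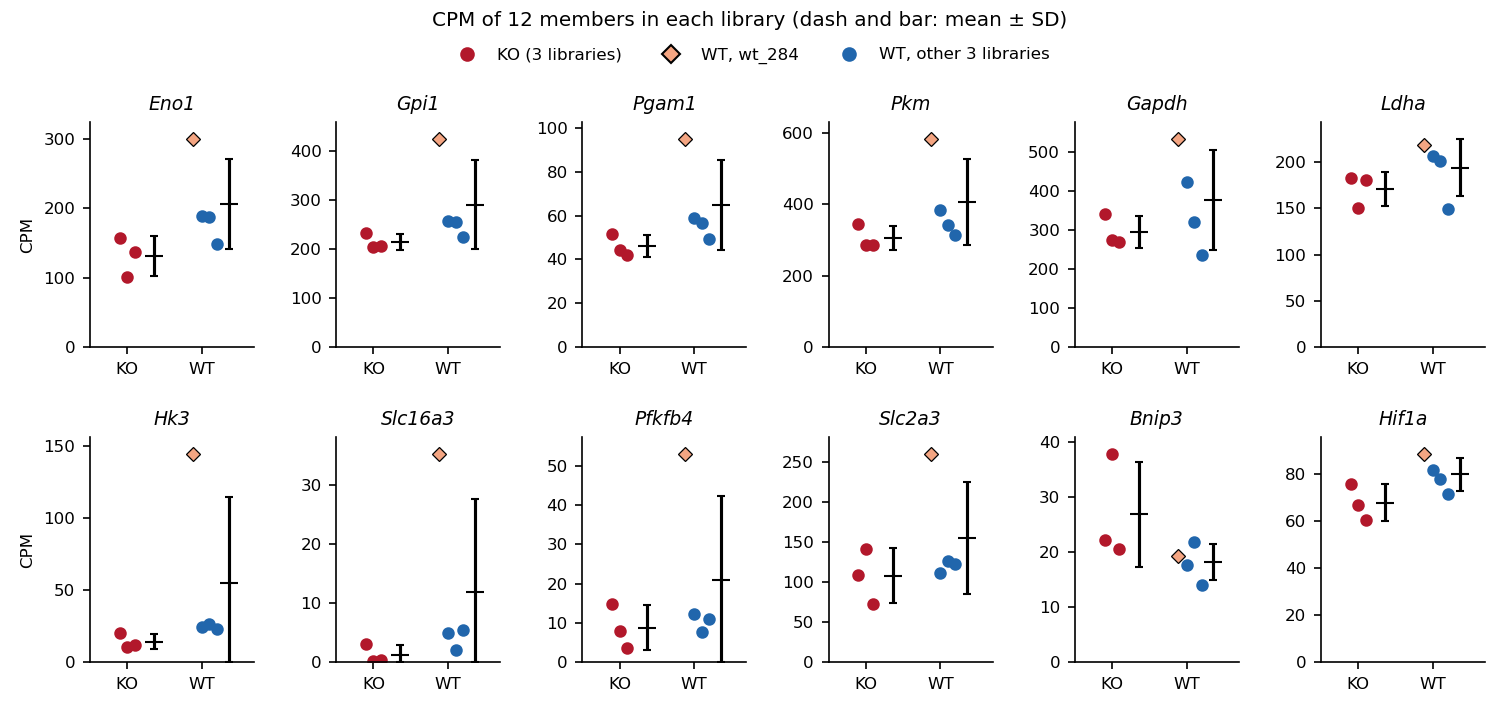
CPM of 12 members in each library, on linear axes from 0 with KO left of WT; points are libraries, the diamond is wt_284, and the dash and bar give the mean ± SD of the group (n = 3 KO and 4 WT), with bars that would pass below 0 ending at the axis. For Eno1, Gpi1, Pgam1 and Pkm the KO points lie at the low end of the WT points, and for Hk3, Slc16a3, Pfkfb4 and Slc2a3 the WT mean is set by wt_284.

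Transporters bring glucose in and carry lactate out. Slc2a1 (GLUT1), the glucose transporter of many growing cells, gave 23.5, 34.3 and 22.5 CPM in KO, against 29.6 CPM in wt_284 and 20.8, 41.1 and 17.3 CPM in the remaining WT libraries. All KO libraries lay inside the WT range, and the log2 fold change was -0.022 ± 0.32 (SE), turning to 0.017 under upper-quartile scaling. Slc2a3 (GLUT3), a transporter with high affinity for glucose, gave 109, 142 and 73.1 CPM in KO, against 259.8 CPM in wt_284 and 111, 127 and 122 CPM in the remaining WT libraries. The KO libraries spanned the remaining WT libraries on both sides, and the log2 fold change of -0.52 ± 0.35 (SE) shrank to -0.15 without wt_284. Slc16a1 (MCT1), which carries lactate and pyruvate both ways, gave 38.9, 25.4 and 26.4 CPM in KO, against 72.8 CPM in wt_284 and 46.6, 33.6 and 23.5 CPM in the remaining WT libraries, with a log2 fold change of -0.55 ± 0.35 (SE), or -0.19 without wt_284. All 4 transporters had negative log2 fold changes with all libraries under TMM scaling, with a median of -0.53, and 3 of the 4 without wt_284.

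Slc16a3 (MCT4), the lactate exporter of strongly glycolytic cells, had the most negative log2 fold change of the 39 genes. The gene (ENSMUSG00000025161.16, chromosome 11 from 120948480 to 120960868, plus strand) gave 3.19, 0.298 and 0.382 CPM in KO, against 35.3 CPM in wt_284 and 5.005, 2.14 and 5.52 CPM in the remaining WT libraries. In counts, the KO libraries held 37, 2 and 3 and the WT libraries 291, 53, 14 and 43. The 2 lowest KO libraries were below all WT libraries, while ko_306 was above wt_310. The log2 fold change was -3.14 ± 1.26 (SE; unadjusted p = 0.03801, adjusted p = 0.992), with a 95% interval of -6.05 to -0.22, and -1.66 without wt_284 (unadjusted p = 0.125). Without ko_306 it was -5.07. With no filter on low counts edgeR gave it an adjusted p of 0.00649 at nearly the same fold change, with a smaller standard error of 0.67. That fit called 81 of 29739 genes, 76 of them with lower KO values, where the main fit called 1 of 15372. Within KO, ko_306 also had the highest neutrophil and monocyte marker sum, 679 CPM, against 200.3 and 195 CPM in the other KO libraries. The part of other marrow cells in the Slc16a3 values was not tested.

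The regulatory kinases act beside the main path. Pyruvate dehydrogenase kinases keep pyruvate from entering mitochondrial oxidation. Pdk1, the one that HIF induces, gave 91.1, 72.2 and 73.1 CPM in KO, against 65.2 CPM in wt_284 and 99.7, 64.2 and 112 CPM in the remaining WT libraries, with a log2 fold change of -0.11 ± 0.22 (SE), or -0.22 without wt_284. Pdk3 gave 60.9, 86.05 and 77.1 CPM in KO, against 62.2 CPM in wt_284 and 76.6, 58.4 and 52.8 CPM in the remaining WT libraries, and with 0.25 ± 0.19 (SE) it was the only one of the 5 kinases with a positive log2 fold change. Pdk2 averaged 13.9 ± 6.76 CPM in KO and 19.8 ± 4.603 CPM in WT (SD, n = 3 and 4), with a log2 fold change of -0.51 ± 0.38 (SE). Pfkfb3 and Pfkfb4 make and break the sugar phosphate that activates phosphofructokinase. Pfkfb3 gave 49.9, 41.6 and 42.03 CPM in KO, against 61.2 CPM in wt_284 and 47.4, 46.6 and 64.7 CPM in the remaining WT libraries, with a log2 fold change of -0.30 ± 0.20 (SE; unadjusted p = 0.146, adjusted p = 0.992). Pfkfb4 gave 14.9, 8.05 and 3.57 CPM in KO, against 52.97 CPM in wt_284 and 12.2, 7.64 and 10.9 CPM in the remaining WT libraries. Its KO libraries spread across the remaining WT libraries, and the log2 fold change of -1.23 ± 0.80 (SE) became -0.20 without wt_284.

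In the HIF system, Hif1a, the alpha subunit found in most cells, gave 75.9, 66.8 and 60.2 CPM in KO, against 88.4 CPM in wt_284 and 81.6, 77.6 and 71.5 CPM in the remaining WT libraries. Below all WT libraries were 2 of its KO libraries, and the 95% interval of the log2 fold change ran from -0.59 to 0.12. Epas1 (HIF-2 alpha) was low in both groups, with 5.08, 2.68 and 4.97 CPM in KO, against 4.61 CPM in wt_284 and 4.25, 2.14 and 2.83 CPM in the remaining WT libraries. Of the hydroxylases that mark the alpha subunit, Egln1 gave 32.3, 25.2 and 31.97 CPM in KO, against 36.6 CPM in wt_284 and 32.01, 25.8 and 35.1 CPM in the remaining WT libraries. Egln3, itself a HIF target, gave 12.1, 4.18 and 15.03 CPM in KO, against 11.2 CPM in wt_284 and 8.69, 7.95 and 2.44 CPM in the remaining WT libraries, so it ranged widely within each group. Vhl gave 9.47, 7.01 and 9.297 CPM in KO, against 11.3 CPM in wt_284 and 11.5, 8.41 and 9.12 CPM in the remaining WT libraries. The log2 fold changes were -0.24 ± 0.16, 0.30 ± 0.62, -0.12 ± 0.22, 0.47 ± 0.55 and -0.23 ± 0.36 (SE) for Hif1a, Epas1, Egln1, Egln3 and Vhl, in that order. None of these intervals excluded 0.

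The 7 HIF targets outside glycolysis were the role group in which positive log2 fold changes prevailed, 5 against 2, with a median of 0.15. Bnip3, a receptor that marks mitochondria for autophagy (ENSMUSG00000078566.8, chromosome 7 from 138890836 to 138909519, minus strand), gave 22.1, 37.7 and 20.5 CPM in KO, against 19.3 CPM in wt_284 and 17.6, 21.9 and 13.998 CPM in the remaining WT libraries. Library ko_314 was far above all WT libraries, ko_306 just above them and ko_320 within their range. The log2 fold change was 0.56 ± 0.29 (SE; unadjusted p = 0.0794, adjusted p = 0.992), the most positive among members above 10 CPM. It was 0.59 without wt_284 and 0.25 without ko_314. Bnip3l (NIX), its relative in the removal of mitochondria from red cells, gave 108, 116 and 109 CPM in KO, against 149 CPM in wt_284 and 118, 117 and 120.5 CPM in the remaining WT libraries. All KO libraries of Bnip3l were below all WT libraries, though by less than 1 CPM at the nearest, and the log2 fold change was -0.18 ± 0.15 (SE; unadjusted p = 0.246), or -0.088 without wt_284. Vegfa, the growth factor of vessels, gave 19.5, 45.2 and 17.1 CPM in KO, against 41.3 CPM in wt_284 and 17.4, 21.9 and 25.3 CPM in the remaining WT libraries, so its high KO library was ko_314, as for Bnip3. Its log2 fold change was 0.039 ± 0.39 (SE), or 0.34 without wt_284. P4ha1, which hydroxylates collagen, had a log2 fold change of 0.17 ± 0.24 (SE), Ddit4, an inhibitor of mTORC1, of 0.19 ± 0.38 (SE), and the mitochondrial protein Higd1a of 0.15 ± 0.31 (SE). Ankrd37 held only 69 counts over all libraries, with a log2 fold change of -0.12 ± 1.34 (SE), and its exons overlap those of Ufsp2 on the opposite strand.

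**Figure D3:**
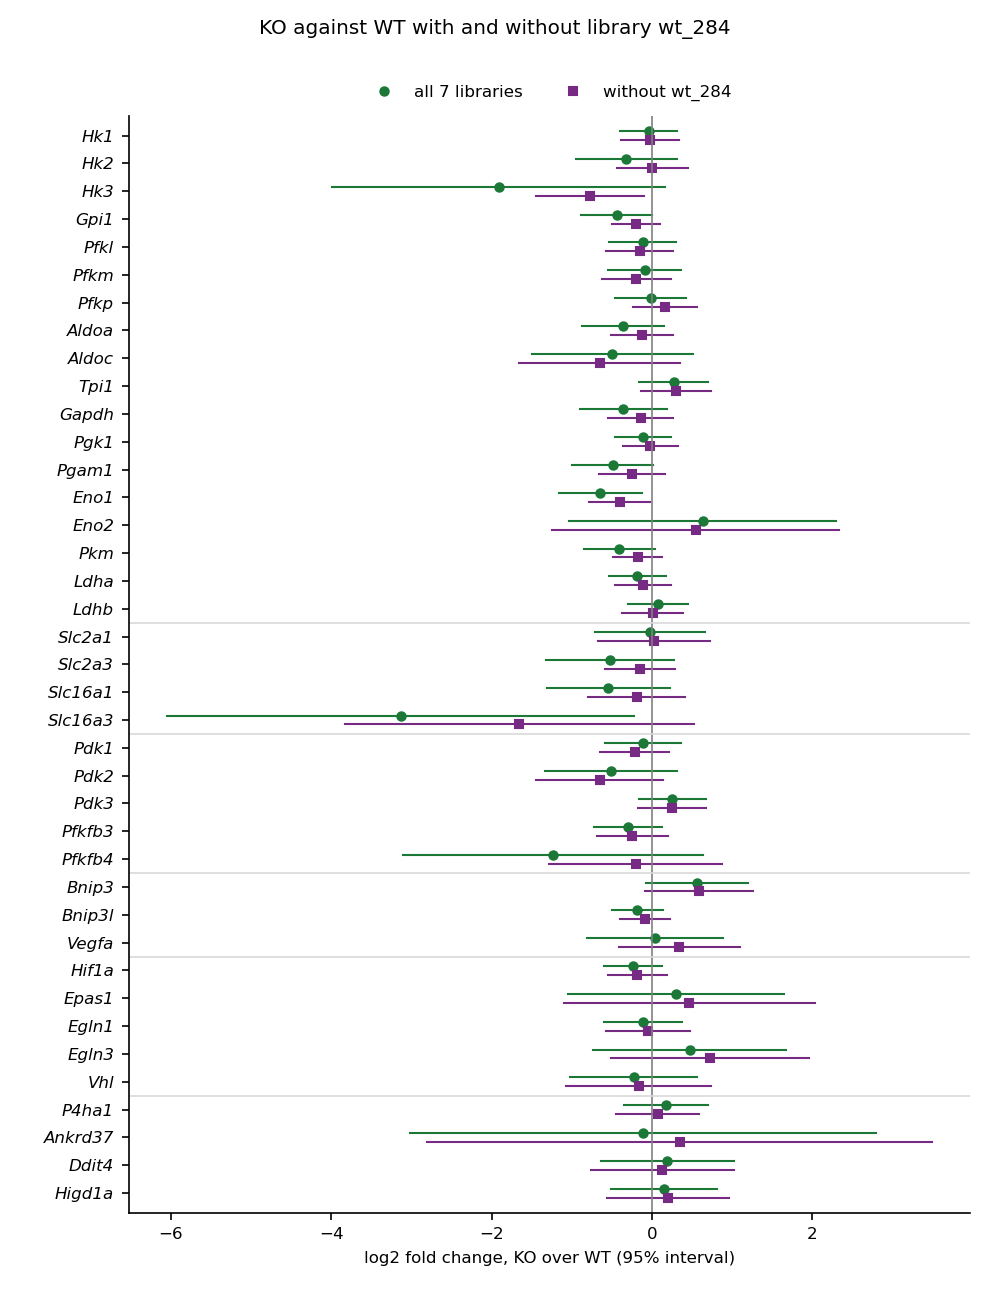
Log2 fold change of each member, KO over WT, with its 95% interval, for all 7 libraries (circles) and without wt_284 (squares); grey lines separate the same role groups as in the plot of levels. All but 2 of the intervals with all libraries, those of Eno1 and Slc16a3, cross 0, and the widest belong to Slc16a3, Ankrd37, Hk3 and Pfkfb4.

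Leaving out wt_284 left 15 positive and 24 negative members, with a median of -0.12, where the median of all genes was 0.0010 and 49.9% of them were negative. The log2 fold change of 25 of the 39 members moved closer to 0, and 7970 of the 14897 genes that both fits tested did so. Beside the members whose value without wt_284 stands with their levels, it moved by over 1.5 times for Hk1 (-0.026), Pfkp (0.16), Ldha (-0.12), Ldhb (0.0077), Egln1 (-0.050), Epas1 (0.47), Egln3 (0.72), P4ha1 (0.071) and Ankrd37 (0.34), and Slc2a1 changed sign (0.025). None of the members was called in this fit, which called 0.0201% of 14897 genes. Unadjusted p was under 0.05 for 2 members, Eno1 and Hk3, against 2.21% of all genes. Groups that stood apart without wt_284 were 7.25% of all genes, and among members they were 3. With lower KO values these were Hk3 and Bnip3l, and with higher KO values Higd1a.

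Precision differed among members. For both directions the 95% interval stayed under a 2-fold change in 24 of the 39 members, against 49.6% of all genes tested, and 14 of the 24 were enzymes. For these genes a difference above 2-fold falls outside the interval, whereas for the others, among them Slc16a3, Ankrd37, Hk3, Pfkfb4, Eno2 and Epas1, the interval reached beyond 2-fold on at least 1 side. A missed threshold does not show that KO and WT were alike.

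Compared with the median of the remaining WT libraries, wt_284 had a median ratio of 1.27 over the 39 genes, against 1.01 over all genes tested. It was the highest WT library for 23 members, where it was the highest for 30.4% of all genes, and the lowest for 5 members, against 25.7%. At least 2-fold above that median were 6 members, against 11.6% of all genes. They were Slc16a3 at 7.05 times, Hk3 at 5.83, Pfkfb4 at 4.85, Slc16a1 at 2.17, Slc2a3 at 2.12 and Hk2 at 2.11. None was at or under 0.5 times, against 8.41% of all genes, and the lowest ratios were those of Pdk2 at 0.581, Aldoc at 0.595, Eno2 at 0.642 and Pdk1 at 0.654. Among the abundant enzymes, Pkm, Pgam1, Gapdh, Gpi1 and Eno1 lay between 1.59 and 1.704 times, while Ldha stood at 1.09 and Ldhb at 0.805 times. These values describe 1 library and carry no test.

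**Figure D4:**
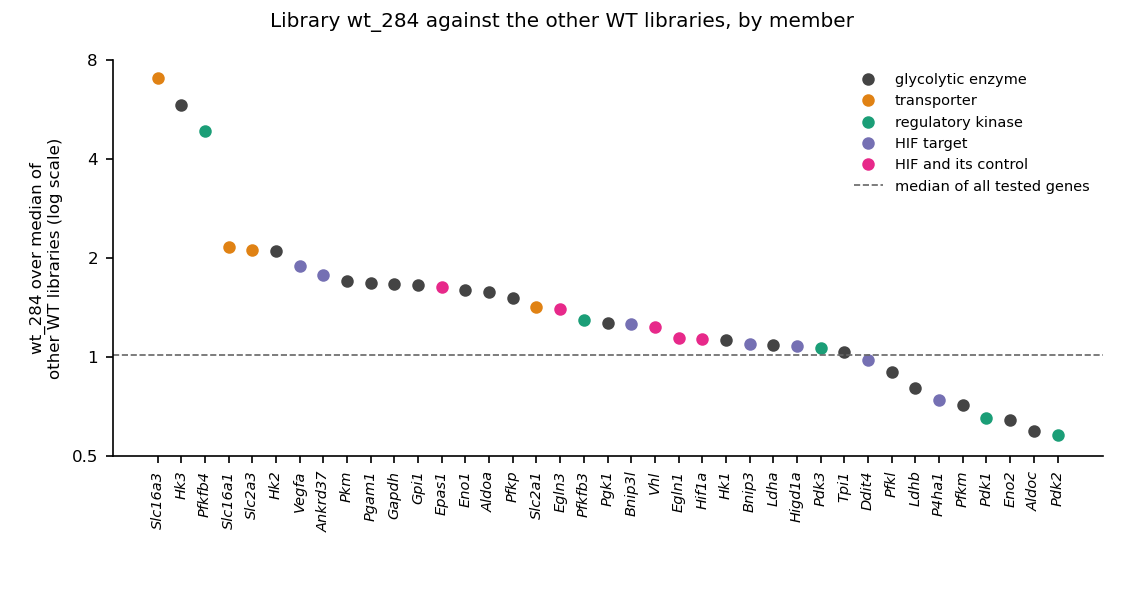
Level in wt_284 over the median of the other 3 WT libraries for each member, on a log axis and ordered by the ratio; colours give the role and the dashed line is the median of all genes tested, 1.01. Slc16a3, Hk3 and Pfkfb4 lie at the top between 4.85 and 7.05 times, and the larger part of the genes lies above the dashed line.

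Where 2 or 3 genes encode the same step, the share of each in its family's counts per kb of exon was compared, since a share within a library does not depend on scaling. In 12 families the leading gene was Hk1, Pfkm, Aldoa, Eno1, Ldha, Slc2a3, Slc16a1, Pdk3, Pfkfb3, Bnip3l, Hif1a and Egln1. The lead of Pfkm and of Pdk3 depends on gene length, since Pfkl and Pdk1 held the most counts before division by it. Hif1a held 94.9% of the HIF alpha pair on average and Eno1 97.4% of the enolases. Ldha held 59.1% of its pair, 68.6% when the longest transcript gave the length and 75.2% of the undivided counts, so its margin over Ldhb depends on the length used.

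None of the 12 shares passed the threshold between KO and WT after adjustment. Their smallest Benjamini-Hochberg adjusted p was 0.514 in the two-sided exact permutation test over 35 splits, whose smallest possible p is 0.0286. A share that reached 0.0286 alone would still miss the threshold after adjustment over 12 shares. The adjusted test therefore could not call a single share by itself, and it does not show that the shares were alike. The share that came nearest was that of Bnip3 in the sum of Bnip3 and Bnip3l. It was 25.8, 35.6 and 24.2% in KO, against 18.1% in wt_284 and 20.2, 24.1 and 16.5% in the remaining WT libraries. Every KO share was above every WT share, with ko_320 barely above wt_310. The means were 28.6 ± 6.17% in KO and 19.7 ± 3.298% in WT (SD, n = 3 and 4; exact p = 0.0571, adjusted p = 0.514). The share of Slc16a1 in the lactate transporters was 93.6, 99.03 and 98.8% in KO, against 71.3% in wt_284 and 91.8, 94.97 and 83.6% in the remaining WT libraries, with an exact p of 0.143. Hk1 held 64.6, 65.7 and 72.7% in KO, against 34.5% in wt_284 and 70.2, 63.3 and 56.4% in the remaining WT libraries, with an exact p of 0.257.

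In wt_284 the leading isozyme changed places in 2 families. Hk3 held 6.46% to 11.6% of its family in KO, against 42.4% in wt_284, more than Hk1 there, and 11.9% to 16.03% in the 3 further WT libraries. Pfkfb4 held 11.6% to 31.6% of its family in KO, against 57.3% in wt_284, and 20.3% to 28.5% in the 3 further WT libraries. Both changes of lead were lost when counts were not divided by length, and that of hexokinase also with the length of the longest transcript. Ldha was likewise highest in wt_284, at 67.3% of its pair.

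**Figure D5:**
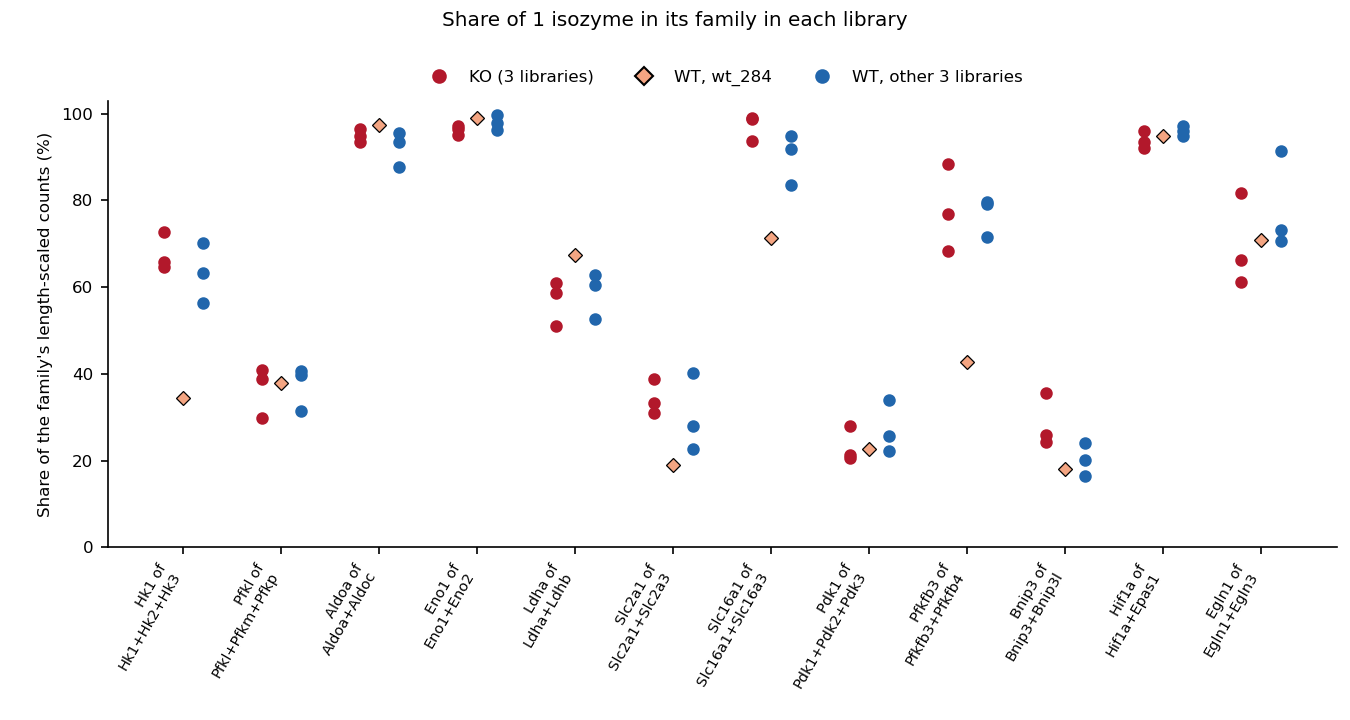
Share of 1 gene in its family's counts per kb of exon, in percent, for 12 families, with KO left of WT and wt_284 as a diamond. The diamond lies below all other points for Hk1, Slc16a1, Slc2a1 and Pfkfb3, and only the Bnip3 family has all KO points above all WT points.

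Further genes around these pathways were read from 2 lists. Of 46 genes of glycolysis, its side branches and pyruvate entry into mitochondria, 40 were tested, 27 with negative and 13 with positive log2 fold changes, and 0 passed the test in edgeR. An unadjusted p under 0.05 was found for 1 of the 40, against 3.27% of all genes. The 4 with the smallest p were Bpgm, which makes the phosphoglycerate that tunes haemoglobin in red cells, at -0.96 ± 0.35 (SE; unadjusted p = 0.0173), Taldo1 of the pentose phosphate pathway at -0.76 ± 0.41, the malate dehydrogenase Mdh2 at -0.30 ± 0.17 and the ADP-dependent glucokinase Adpgk at -1.88 ± 1.00. Bpgm gave 26.6, 20.3 and 22.8 CPM in KO, against 80.5 CPM in wt_284 and 26.4, 36.7 and 37.5 CPM in the remaining WT libraries. Taldo1 gave 78.8, 78.1 and 71.1 CPM in KO, against 243 CPM in wt_284 and 88.5, 113 and 71.7 CPM in the remaining WT libraries. Mdh2 gave 117, 123 and 105 CPM in KO, against 182 CPM in wt_284 and 132, 121 and 129 CPM in the remaining WT libraries. All 4 had their highest level in wt_284, Adpgk by the widest margin. Adpgk gave 44.9, 49.96 and 22.4 CPM in KO, against 403 CPM in wt_284 and 56.7, 72.3 and 44.8 CPM in the remaining WT libraries. Without wt_284 the log2 fold changes were -0.52 for Bpgm, -0.26 for Taldo1, -0.14 for Mdh2 and -0.56 for Adpgk.

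Of 35 further genes of the HIF pathway, 28 were tested, 14 with positive and 14 with negative log2 fold changes, with 0 calls in edgeR. An unadjusted p under 0.05 was found for 1 of the 28, against 3.27% of all genes. The 4 with the smallest p were Cul2, the scaffold of the Vhl ubiquitin ligase, at 0.56 ± 0.22 (SE; unadjusted p = 0.0257), Ndrg1, a gene induced in low oxygen, at -0.38 ± 0.18, the lipid droplet gene Hilpda at 1.40 ± 0.71 and the HIF target Fam162a at 0.46 ± 0.23. Cul2 gave 37.1, 59.7 and 58.2 CPM in KO, against 28.8 CPM in wt_284 and 33.7, 37.4 and 39.8 CPM in the remaining WT libraries, with ko_306 inside the WT range. Ndrg1 gave 51.6, 41.3 and 40.4 CPM in KO, against 64.5 CPM in wt_284 and 59.4, 56.7 and 50.2 CPM in the remaining WT libraries, with ko_306 again inside the WT range and the other KO libraries below it. Hilpda gave 2.84, 3.58 and 6.88 CPM in KO, against 1.94 CPM in wt_284 and 1.32, 1.22 and 2.18 CPM in the remaining WT libraries. All its KO libraries were above all WT libraries at a low level. Fam162a gave 26.3, 38.3 and 32.1 CPM in KO, against 21.2 CPM in wt_284 and 25.7, 21.1 and 25.7 CPM in the remaining WT libraries, and its groups stood apart as well. With lower KO values the groups of Anxa2 stood apart, which makes 3 of the 28 genes, against 2.43% of all genes in each direction. Bnip3, Fam162a, Hilpda and Cul2 thus had higher KO means while Ndrg1, Hif1a and Vhl had lower ones, and all these genes had an adjusted p of 0.992.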

How the data were processed

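Per the labels' protocols, RNA of sorted cells was made into libraries with a stranded SMARTer total RNA kit and sequenced in pairs. The authors deposited estimated counts per gene, rounded to integers and unscaled. Cutadapt and Salmon are named, with no version, in the submitters' processing notes, and no source used here gives the annotation. Each of the 7 value columns was used. Positions, exon lengths and transcripts came from GENCODE M21 (GRCm38), which held 99.5% of the gene identifiers, and promoters from RefSeq.

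Libraries were grouped by the genotype label. The counts of all genes were fitted in R 4.3.3 by edgeR 4.0.16 (robust quasi-likelihood test, TMM, filterByExpr, Benjamini-Hochberg adjustment over 15372 genes, threshold 0.05), with no covariate. Standard errors are the log2 fold change over the square root of F, and intervals are 95%. CPM per kb divides by the merged exon length. Copies were taken as near-identical where they share at least 50% of their 31-mers with a member. Shares were compared with two-sided exact permutation tests (scipy 1.17.1). The fit was tested on simulated data. Intervals cover the spread between these mice, and totals from 6444134 to 11101774 counts limit genes with few counts.

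The members and lists were chosen with earlier results of these data known. Values in every library are printed for the 8 members of smallest p, the leader of each of 12 families, the 5 highest ratios of wt_284 and a fixed set, and for the 4 smallest p of each further list. Alternatives were DESeq2 1.42.0, RLE and upper-quartile scaling, a fit with no filter, one requiring 1 CPM in 3 libraries, one without the robust option, limma-voom (limma 3.58.1) with quality weights, other lengths and leaving out each mouse. Summing near-identical copies was chosen after seeing the data.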

Additional observations from a re-analysis of the deposited data

Results flagged for a closer look

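Levels of the 39 members and the 12 shares were searched, within the 4 WT libraries, for an outlying library. Its gap to its nearest neighbour, divided by the range of the 4 values, had to exceed Dixon's 95% critical value for 4 samples. Of the 51 values, 8 did so. The critical value passes about 1 in 20 independent values. The 51 values come from the same 4 libraries, and the shares from the same counts, so they are not independent. The search was not run over all genes tested, of which 11.6% were at least 2-fold above the median of the other WT libraries in wt_284. No excess over chance can therefore be read from this count. In 6 of them the library was wt_284, each time on the high side: Hk3 at 144.2 CPM against 23.4 to 26.4 CPM in the remaining WT libraries, Gpi1 at 424.1 CPM against 225.6 to 257.2 CPM, Slc2a3 at 259.8 CPM against 111.1 to 126.7 CPM, Slc16a3 at 35.27 CPM against 2.14 to 5.52 CPM, Pfkfb4 at 52.97 CPM against 7.64 to 12.2 CPM, and Bnip3l at 148.9 CPM against 117.1 to 120.5 CPM. The same library had the highest sums of neutrophil and monocyte markers (14672 CPM) and of erythroid markers (3823 CPM), and their part in these levels was not tested. Ddit4, the mTORC1 inhibitor, was high in wt_310, at 15.89 CPM against 8.48 to 9.54 CPM in the remaining WT libraries. The share of Egln1 in the sum of Egln1 and Egln3 was high in wt_312, at 91.41% against 70.7% to 73.2%. The 3 KO libraries are too few for this search.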

How the results depend on the processing

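Of all genes, 10 were called by DESeq2, 81 with no filter on low counts, 0 by limma-voom with quality weights (469 at an unadjusted p under 0.05) and 1 in edgeR with all libraries, and 1 to 3 when each mouse was left out. Among the 39 members 1 was called with no filter, Slc16a3 (log2 fold change -3.12), and 0 under every other alternative run, those that leave out a mouse included (0 to 0). Unadjusted p was under 0.05 for 2 members in edgeR, 4 in DESeq2, 10 with no filter (1779 of 29739 genes), 1 in limma-voom and 0 to 7 when each mouse was left out. Pfkp turned positive under upper-quartile scaling (0.033), a filter of 1 CPM (0.0026), limma-voom (0.043) and with near-identical copies summed (0.0036), and Slc2a1 under upper-quartile scaling (0.017) and limma-voom (0.081). Leaving out each mouse moved the log2 fold change across 0 for Hk1 (-0.12 to 0.088), Hk2 (-0.46 to 0.0043), Pfkl (-0.24 to 0.060), Pfkm (-0.20 to 0.039), Pfkp (-0.099 to 0.16), Pgk1 (-0.20 to 0.0081), Slc2a1 (-0.22 to 0.24), Pdk1 (-0.25 to 0.060), Vegfa (-0.51 to 0.34), Egln1 (-0.21 to 0.0049), P4ha1 (-0.0086 to 0.32) and Ankrd37 (-0.72 to 0.48). It also moved the KO minus WT difference of the shares of Pfkl (-3.01 to 2.49 percentage points) and Aldoa (-0.54 to 2.68 percentage points) across 0. The cause of these moves was not tested. The range was -0.81 to -0.40 for Eno1, -5.07 to -1.66 for Slc16a3 and 0.25 to 0.73 for Bnip3, none of which crossed 0. Under settings other than leaving out a mouse, 305 values of member fold changes kept their direction without a call, 6 changed sign and 1 became a call. The 305 include Hk3 in DESeq2, for which that method gave no p. Without a WT mouse the exact test of shares cannot go below 0.1, and without a KO mouse not below 0.0667. No paired analysis was possible because each mouse number belongs to 1 library and the labels name no pairing. Members with few counts, such as Ankrd37 with 69, are limited by depth.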

Other observations

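The pentose phosphate pathway branches from glycolysis and makes NADPH, and its 7 genes were picked out after their values had been seen. Library wt_284 was the highest WT library for all 7, where it was so for 30.4% of all genes tested. At least 2-fold above the median of the remaining WT libraries were 3 of them: its first enzyme G6pdx (14.6 to 37.5 CPM in KO, against 172 CPM in wt_284 and 31.5 to 47.5 CPM in the remaining WT libraries), Pgd (34.6 to 45.03 CPM in KO, against 170.2 CPM in wt_284 and 27.996 to 54.2 CPM in the remaining WT libraries) and the transaldolase Taldo1. The other 4, Pgls, Tkt, Rpia and Rpe, lay at 1.103 to 1.82 times that median, and Rpe was higher in ko_320 than in wt_284. The glycogen phosphorylase Pygl (52.8 to 79.05 CPM in KO, against 305 CPM in wt_284 and 59.3 to 84.8 CPM in the remaining WT libraries) was also highest in wt_284. Pygb, the other glycogen phosphorylase of the list, was not. It gave 34.5 to 49.5 CPM in KO, against 45.9 CPM in wt_284 and 35.5 to 55.6 CPM in the remaining WT libraries. None of these genes passed the test between KO and WT. The log2 fold changes of G6pdx, Pgd, Taldo1 and Pygl were -1.34, -0.89, -0.76 and -0.96, and without wt_284 they were -0.46, -0.030, -0.26 and -0.056.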
